A study of Mus musculus with 35 samples.

Results

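Cdh1, Epcam, Cldn3, Cldn4, Cldn6, Cldn7, Ocln, Krt8, Krt18 and Esrp1 code for proteins of epithelial cell contacts, for keratins of the simple epithelial cytoskeleton and for an epithelial splicing regulator. They were chosen by name, not by a measured value, but with earlier results of these data known. They are 10 of the 21631 protein-coding genes on chromosomes 1 to 19 and X in the RefSeq gene table of GRCm38.p6. Each was described in 2 windows, the near window (the gene plus 2.5 kb on each side) and the wide window (the gene plus 50 kb on each side). The data were 22 ChIP-seq peak lists, 12 for H3K27ac, a histone mark of active promoters and enhancers, and 10 for the transcription factor KLF4. They came from mouse embryonic fibroblasts (MEF), from such cells during reprogramming to induced pluripotent cells and from embryonic stem cells (ESC).

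The fibroblasts came from mice of mixed C57BL/6 and 129 background with a doxycycline-inducible Oct4, Klf4, Sox2 and Myc (OKSM) cassette at Col1a1 and the M2rtTA activator at Rosa26. MEF libraries (H3K27ac, n = 2) were from these cells in MEF medium without doxycycline and without sorting. Day 3 cells (H3K27ac, n = 3, and KLF4, n = 2) had been kept in the same LIF-containing medium as ESC (1000 U/ml) with added doxycycline (1 µg/ml) plus ascorbic acid (50 µg/ml) and were taken in bulk. Day 6 cells (H3K27ac, n = 3, and KLF4, n = 2) and day 9 cells (n = 2 for each mark) had the same treatment and were sorted for the surface marker SSEA1. ESC of the V6.5 line (n = 2 for each mark) were grown on irradiated feeder cells in serum with 1000 U/ml LIF. A further KLF4 pair came from V6.5 ESC to which 1 µM of a MEK inhibitor and 3 µM of a GSK3 inhibitor had been added (2i). At days 3 to 9 the KLF4 antibody detects protein from the cassette and from the endogenous gene alike, feeder cells can contribute to the ESC lists, and the design text calls the replicates biological.

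During mesenchymal-to-epithelial transition, an early phase of fibroblast reprogramming, cells give up fibroblast characters and form epithelial contacts. Cadherins hold neighbouring cells together at adherens junctions, claudins and occludin seal tight junctions, and keratins 8 and 18 pair into the filaments of simple epithelia. KLF4 binds GC-rich DNA with CACCC boxes and is known as an activator of Cdh1, whereas SNAI and ZEB repressors bind E-boxes of the form CACCTG in epithelial promoters. The question here is at which stage KLF4 and H3K27ac are first found at these genes.

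KLF4 peaks were found at 7 of the 10 genes at day 3, a count that stricter settings lowered to 5, and at 8 or 9 later. H3K27ac peaks were found at all 10 only from day 9 on. MEF had no KLF4 library, so day 3 was the earliest stage at which KLF4 could be found. A gene was counted at a stage when at least 2 libraries had a peak in its near window. For KLF4 the counts were 7 of 10 genes at day 3, against 41.6% of all protein-coding genes, 9 at day 6 (39.7% of all genes), 9 at day 9 (43.1%), 9 in ESC (40.5%) and 8 in 2i (44%). For H3K27ac they were 4 of 10 in MEF (66.3% of all genes), 3 at day 3 (57.5%), 4 at day 6 (49.3%), all 10 at day 9 (63.5%) and all 10 in ESC (65.9%). The day 6 count for H3K27ac was near the share of all genes, and no difference between the 10 genes and all genes was tested at any stage. Shares of all genes are not matched for gene length, whose median was 5.72 kb for the 10 genes and 17.3 kb for all. List lengths differed between stages, with 17493 to 22462 peaks at day 6 and 43974 to 45506 at day 9. When each H3K27ac list was cut to its 17493 best-scored peaks, 1 gene was marked in MEF (48.4% of all genes), 2 each at day 3 (46.2%) and day 6 (47.5%), 9 at day 9 (51.5%) and 2 in ESC (42.7%). This cut keeps a smaller share of longer lists, and the ESC lists held 81231 to 81971 peaks. With the top 50% of each list, 9 genes were marked at day 9 (55.3%) and 7 in ESC (57.9%). The day 6 count of 4 was 2 without the DG-3458 library labelled 1 or without the EA-3702 library (45.4% and 44.3% of all genes), 2 at a deposited q-value of at most 0.01 (43.5%) and 1 with the top 50% of each list (38.3%). The peak names inside the DG-3458 lists labelled 1 and 2 of day 6 carry these numbers exchanged, and per-library values here follow the labels. The wide windows, which take in neighbouring genes, held H3K27ac at all 10 genes at every stage, against 82.4% of all genes in MEF, 76.4% at day 3 and 69.7% at day 6, then 81.7% at day 9 and 85.3% in ESC. KLF4 was in the wide windows of all 10 genes at day 3 (71.6% of all genes) and day 9 (72.4%), and of all but Ocln at day 6 (68.5%), in ESC (69.7%) and in 2i (71.3%).

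**Figure D1:**
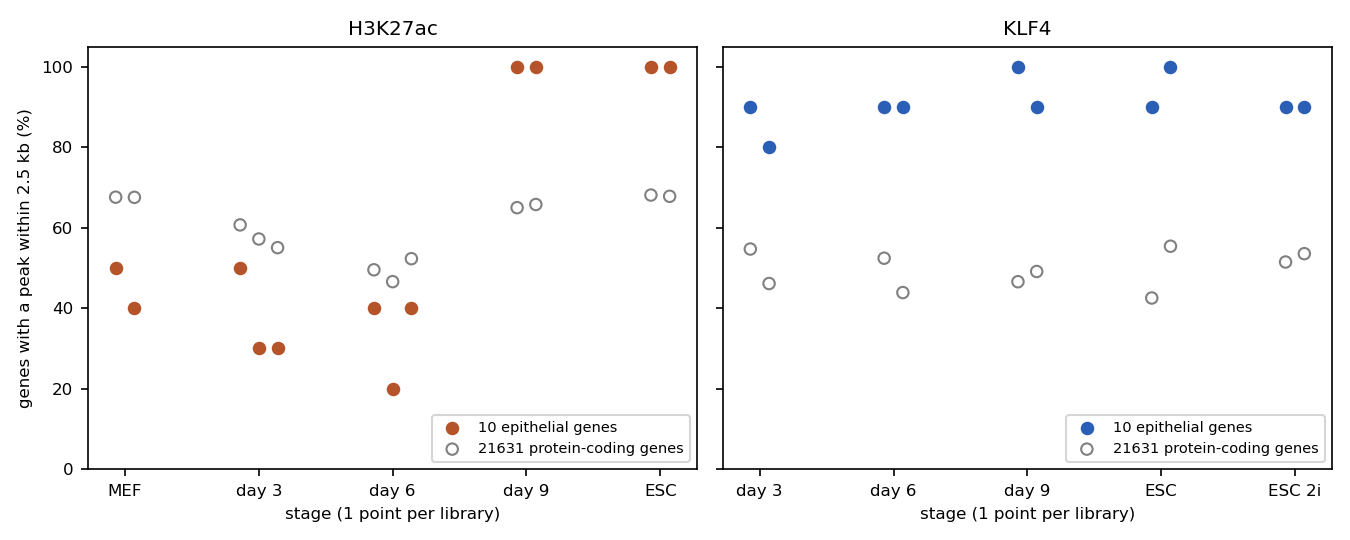
Share of genes with at least 1 peak within 2.5 kb in each library (y axis, percent) by stage (x axis), for H3K27ac on the left and KLF4 on the right. Filled points are the 10 epithelial genes, open points the 21631 protein-coding genes. For H3K27ac the filled points lie below the open ones in MEF and at days 3 and 6 and at 100% in the day 9 and ESC libraries, while for KLF4 they lie above the open points in every library.

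The start sites of 5 windows lay inside a KLF4 region, a region being the merged peaks found in at least 2 libraries of a stage. Such a region can reach beyond the peak of a single library. No KLF4 peak of day 3 itself reached a start site in these windows, while at day 6 the peaks of both libraries covered that of Cldn4 and the peak of 1 library those of Cldn3 and Cldn7. At day 9 both libraries covered the start sites of Cldn3, Cldn4, Cldn7 and Krt8, and 1 library that of Krt18. Their RefSeq promoter sequences (GRCm38.p6, 250 bases before to 50 after the start site) are shown because KLF4 was measured over them. They are those of Cldn3 (chr5:134985964-134986263, plus strand), Cldn4 (chr5:134946885-134947184, minus strand), the second start site of Cldn7 (chr11:69965171-69965470, plus strand), Krt8 (chr15:102004293-102004592, minus strand) and Krt18 (chr15:102027966-102028265, plus strand), written 5′ to 3′ on the gene's strand. Capitals mark CACCC or its reverse complement GGGTG, and the E-box CACCTG or its reverse complement CAGGTG.
Cldn3: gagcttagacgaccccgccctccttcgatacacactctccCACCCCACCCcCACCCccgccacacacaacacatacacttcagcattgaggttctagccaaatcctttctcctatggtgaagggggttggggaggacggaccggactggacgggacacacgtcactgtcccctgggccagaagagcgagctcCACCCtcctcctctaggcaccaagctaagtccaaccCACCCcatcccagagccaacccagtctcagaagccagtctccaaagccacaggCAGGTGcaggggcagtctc
Cldn4: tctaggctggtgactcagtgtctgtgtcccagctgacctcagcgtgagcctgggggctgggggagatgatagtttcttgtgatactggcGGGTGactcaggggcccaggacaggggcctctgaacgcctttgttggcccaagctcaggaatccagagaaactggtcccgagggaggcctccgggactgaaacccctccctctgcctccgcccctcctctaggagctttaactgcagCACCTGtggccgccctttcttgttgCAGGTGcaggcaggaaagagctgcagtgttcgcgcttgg
Cldn7, second start site: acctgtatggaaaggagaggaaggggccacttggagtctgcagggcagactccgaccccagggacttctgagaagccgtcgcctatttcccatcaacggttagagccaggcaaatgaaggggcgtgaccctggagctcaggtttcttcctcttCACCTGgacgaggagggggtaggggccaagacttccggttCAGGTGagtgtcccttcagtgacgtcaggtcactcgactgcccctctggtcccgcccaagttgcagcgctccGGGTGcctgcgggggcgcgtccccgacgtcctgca
Krt8: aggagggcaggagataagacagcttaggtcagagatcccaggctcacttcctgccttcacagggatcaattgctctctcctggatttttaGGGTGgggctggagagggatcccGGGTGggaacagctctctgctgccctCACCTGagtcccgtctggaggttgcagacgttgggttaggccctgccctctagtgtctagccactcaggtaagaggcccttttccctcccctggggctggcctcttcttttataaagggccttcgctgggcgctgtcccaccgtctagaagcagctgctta
Krt18: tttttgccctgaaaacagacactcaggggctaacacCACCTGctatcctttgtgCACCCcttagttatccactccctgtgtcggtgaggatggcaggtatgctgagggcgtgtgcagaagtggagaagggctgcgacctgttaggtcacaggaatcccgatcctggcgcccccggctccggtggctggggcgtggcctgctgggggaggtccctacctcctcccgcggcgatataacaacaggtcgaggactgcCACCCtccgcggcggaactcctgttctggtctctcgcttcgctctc
CACCC and CACCTG share their first 4 letters and then differ, so no stretch of a strand is counted as both. The promoter table held 10 windows for 8 of the 10 genes, of which the 2 of Ocln overlap. CACCC or GGGTG was in 9 of these 10 windows, against 57.7% of 32544 promoters in the table, and CACCTG or CAGGTG was also in 9 of 10, against 20.3% of all promoters. The Cldn6 window held no CACCC or GGGTG, and the first window of Cldn7 held no CACCTG or CAGGTG. These are matches of letters, not measured sites.

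Cdh1 codes for E-cadherin, the adhesion protein of adherens junctions (gene ID 12550, chromosome 8, 106603350 to 106670247). KLF4 peaks were in both day 3 libraries and covered 1.85 and 1.26 kb of its near window, then 1.71 and 2.33 kb at day 6, 3.03 and 2.79 kb at day 9, 1.61 and 3.87 kb in ESC, and 1.66 and 2.17 kb in 2i. The day 9 values lie above those of days 3 and 6, and the ESC pair spans them. H3K27ac peaks covered 6.84 and 6.39 kb in MEF, 1.71, 1.29 and 0.411 kb at day 3, 0.464, 0.561 and 1.32 kb at day 6, 23.8 and 20.9 kb at day 9, and 37.0 and 37.9 kb in ESC. Cdh1 was thus acetylated in every library, least at days 3 and 6 and most in ESC, where no library of another stage reached the ESC values. These lengths are not scaled for the length of the lists. Per Mb of list, H3K27ac covered 0.083 and 0.076 kb in MEF and 0.045, 0.042 and 0.017 kb at day 3. At day 6 it covered 0.044, 0.061 and 0.066 kb per Mb, at day 9 0.49 and 0.42 kb and in ESC 0.56 and 0.61 kb.

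The acetylated stretches of Cdh1 were not the same ones at each stage. In the near window MEF peaks lay inside the gene, in regions that include those starting 22.2 and 34.5 kb from its low-coordinate end, and did not cover the KLF4 regions of day 3 found there. Those KLF4 regions of the near window started 5.68 kb (438 bp wide), 28.2 kb (449 bp wide) and 41.3 kb (921 bp wide) from the low-coordinate end, and all were found in both KLF4 libraries at day 3, day 6, day 9 and in ESC. At 5.68 and 28.2 kb H3K27ac was in 0 of 2 MEF, 0 of 3 day 3 and 0 of 3 day 6 libraries and in both day 9 and both ESC libraries. At 41.3 kb 1 day 3 library also had a peak. A KLF4 region 0.558 kb from the low-coordinate end was bound in both ESC libraries and in 1 day 6 library, and H3K27ac was over it in 2 of 3 day 6 libraries. In the wide window 2 further KLF4 regions were in both day 3 libraries. At the one 3.34 kb outside the low-coordinate end (462 bp wide), KLF4 was also in both libraries at day 6 and day 9, and H3K27ac was in 0 of 2 MEF, 3 of 3 day 3, 1 of 3 day 6, 2 of 2 day 9 and 0 of 2 ESC libraries, so that both marks were present there at day 3. At the other, 41.7 kb outside that end, H3K27ac was in both MEF libraries and in no day 3 or day 6 library. It was there in 1 of 2 day 9 libraries and in both ESC libraries. The table holds no strand, exon or start site of Cdh1, so these places are not assigned to exons or introns.

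**Figure D2:**
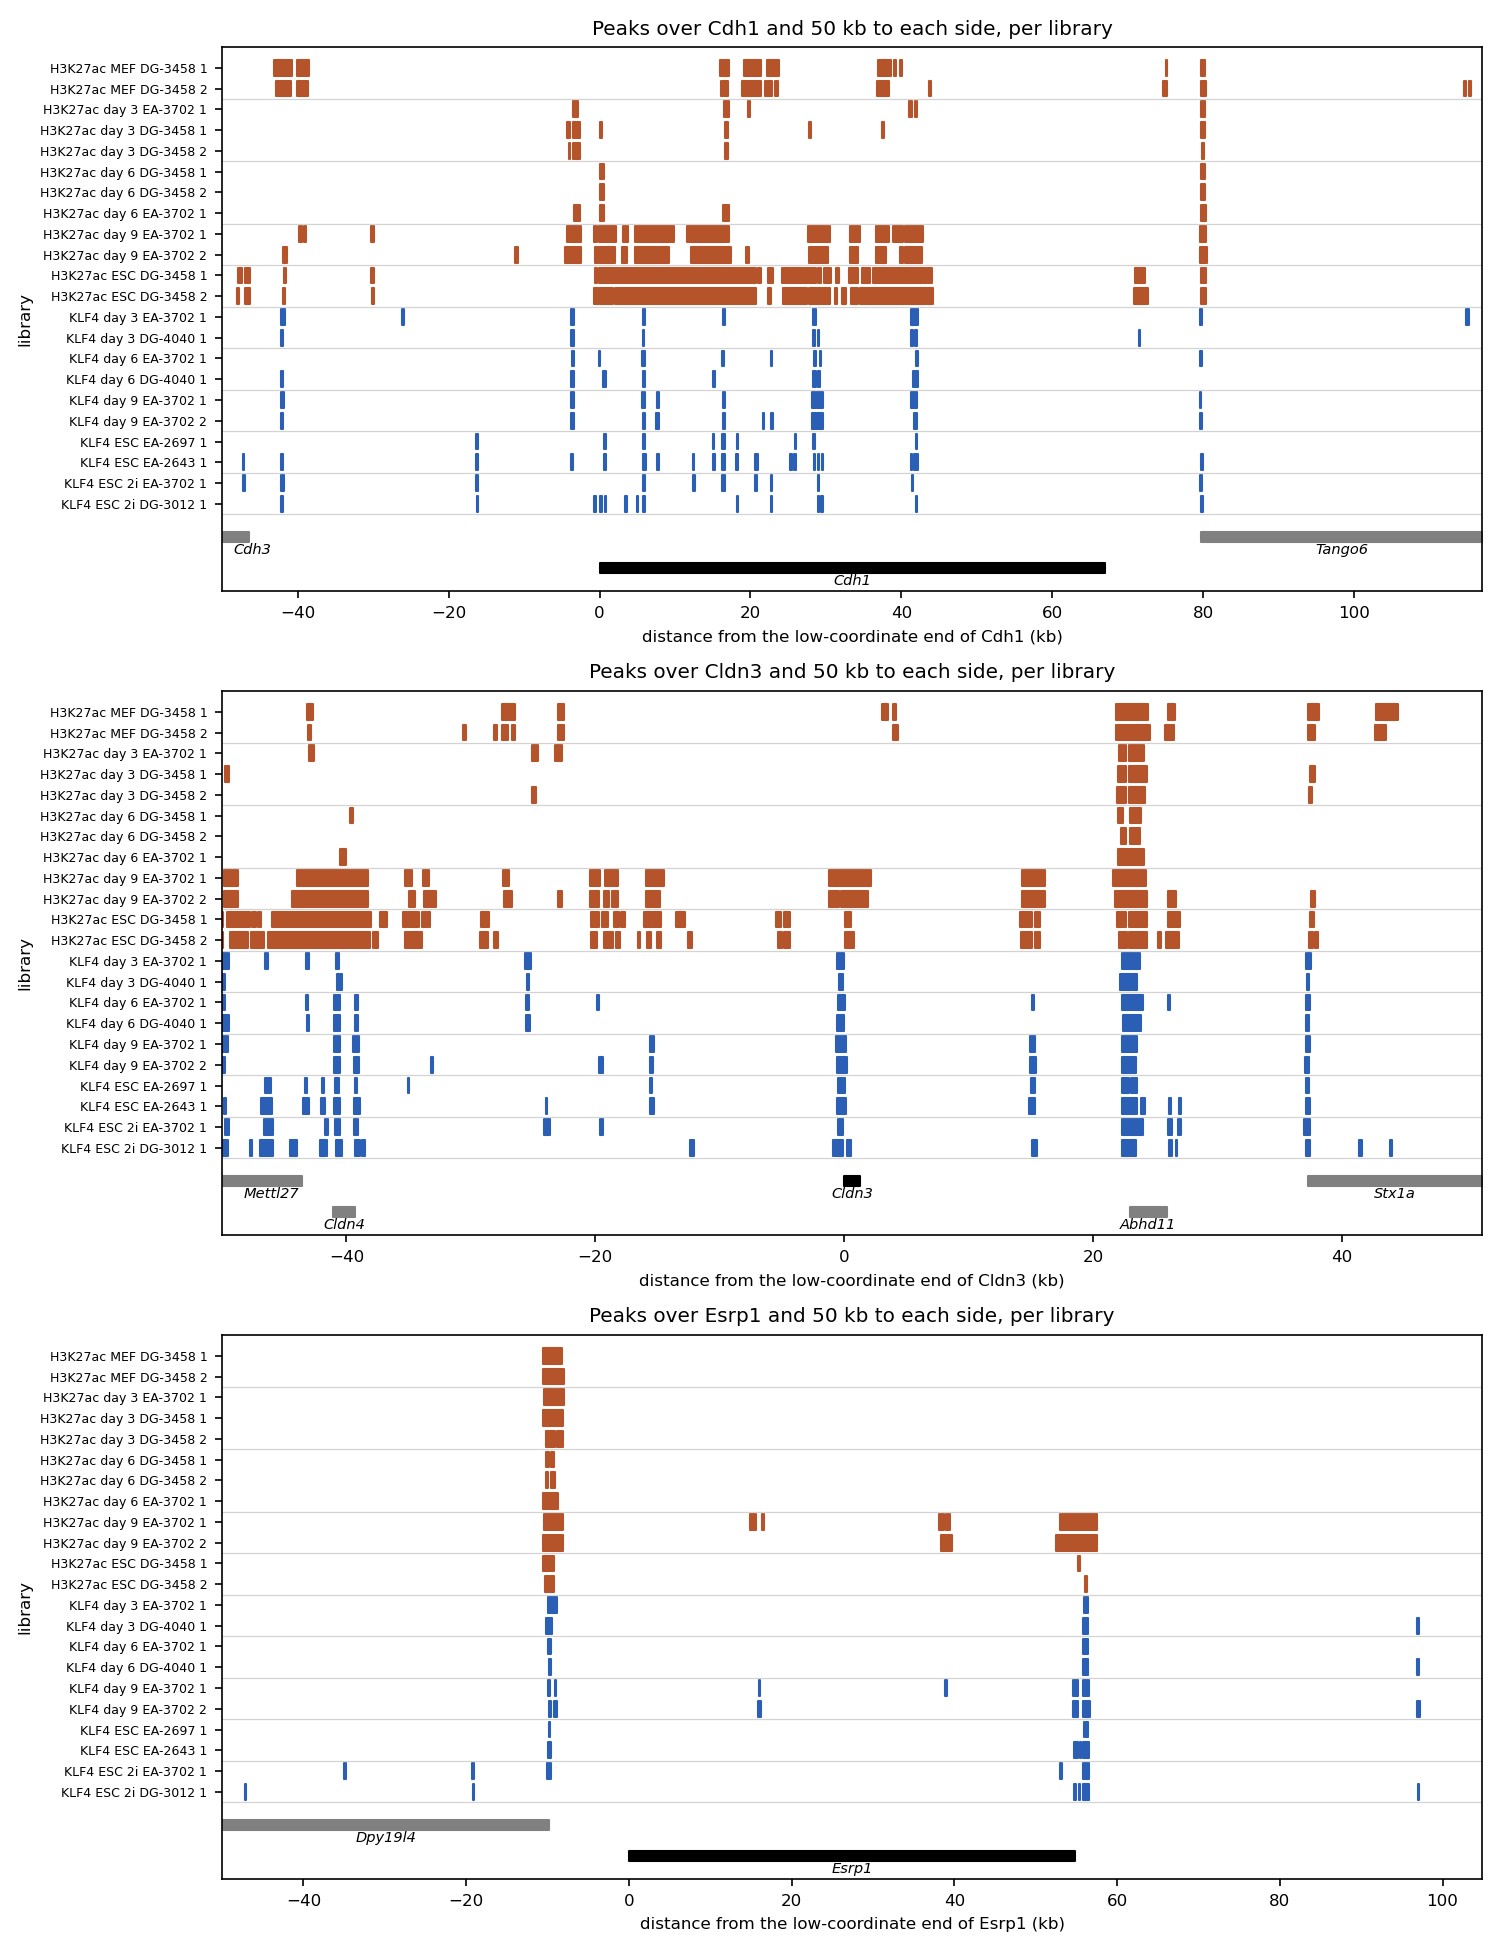
Peaks of every library over Cdh1, Cldn3 and Esrp1 with 50 kb on each side (x axis, distance from the gene's low-coordinate end in kb; rows, libraries; orange, H3K27ac; blue, KLF4; bars at the bottom, genes). In each map KLF4 peaks over or beside the gene are present from day 3, and H3K27ac peaks overlap them in the day 9 libraries. All day 9 H3K27ac peaks in the near window of Cdh1, with or without KLF4, cover 23.8 and 20.9 kb.

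Epcam codes for the epithelial cell adhesion molecule (gene ID 17075, chromosome 17, 87635979 to 87651127). KLF4 covered 0.275 and 0.256 kb of the near window at day 3, 0.337 and 0.536 kb at day 6, 0.853 and 0.812 kb at day 9, 0.241 and 0.398 kb in ESC and 0.715 and 0.491 kb in 2i. A KLF4 region of 728 bp centred 0.627 kb after the start site was found in both libraries of all 5 stages. H3K27ac was absent from the near window in the 2 MEF and 3 day 3 libraries, was found in all 3 day 6 libraries over 0.497, 0.205 and 0.637 kb, and covered 4.26 and 4.94 kb at day 9 and 1.20 and 1.19 kb in ESC. Epcam was the only one of the 10 genes with H3K27ac in no MEF or day 3 library and in every day 6 library. Its day 9 values lie above those of all other stages. Farther off, a KLF4 region of 959 bp centred 32.8 kb before the start site, with no other coding gene within 2.5 kb, was also in both libraries of all 5 stages. H3K27ac was over it in 0 of 2 MEF libraries, in 3 of 3 libraries at day 3 and at day 6 and in both libraries at day 9 and of ESC, so both marks were present at this distant region from day 3 on.

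Claudins 3, 4, 6 and 7 are tight junction strand proteins, and Cldn3 and Cldn4 lie 39.3 kb apart, so that their wide windows share peaks. At Cldn3 (gene ID 12739, chromosome 5, 134986214 to 134987476) a KLF4 region of 943 bp that takes in the start site was found in both libraries of all 5 stages, and KLF4 covered 0.508 and 0.322 kb at day 3 and 0.737 and 0.846 kb at day 9. The authors' fold enrichments of these peaks were 6.93 and 3.99 at day 3, 10.8 and 10.8 at day 6, 10.2 and 9.30 at day 9, 5.01 and 6.10 in ESC, and 7.46 and 8.82 in 2i. Depth is unknown, so these folds describe each list alone and do not rank the stages. H3K27ac was near Cldn3 in 1 MEF library (0.527 kb), in no day 3 or day 6 library, in both day 9 libraries (3.35 and 2.98 kb) and in both ESC libraries (0.503 and 0.710 kb). The 2 day 3 peaks ended 0.048 and 0.115 kb before the start site. Both day 9 libraries had KLF4 and H3K27ac peaks over the start site itself, and the ESC peaks of H3K27ac began 0.056 and 0.049 kb after it.

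At Cldn4 (gene ID 12740, chromosome 5, 134945123 to 134946934) KLF4 was first found within the gene and then at its start site. A KLF4 region 1.42 kb after the start site was in both libraries of every stage, and the region over the start site was in neither day 3 library and in both libraries from day 6 on. KLF4 covered 0.544 and 0.322 kb at day 3, 0.874 and 0.850 kb at day 6, 0.931 and 0.896 kb at day 9, 0.878 and 1.65 kb in ESC, and 0.927 and 1.60 kb in 2i, so both day 3 libraries were the lowest. H3K27ac covered 0.50 and 0.257 kb in MEF, 0.398 kb in 1 of 3 day 3 libraries, 0.275 and 0.490 kb in 2 of 3 day 6 libraries, 5.36 and 5.31 kb at day 9, and 6.07 and 5.85 kb in ESC. The MEF and day 3 peaks lay outside Cldn4, between it and its neighbour Mettl27 and closer to Mettl27, whereas the day 6 peaks lay inside Cldn4. Cldn4 and Cdh1 were the 2 genes whose ESC values in kb, before any scaling, were above both day 9 values in the near window. Scaled by the covered length of each list, the log2 difference from day 9 to ESC was -0.20 at Cldn4 and 0.36 at Cdh1. Neither passed the limma test described below.

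At Cldn7 (gene ID 53624, chromosome 11, 69964779 to 69967886) a KLF4 region of 669 bp that takes in the second start site was found in both libraries of all 5 stages. KLF4 covered 0.214 and 0.202 kb of the whole near window at day 3 and 0.507 and 0.755 kb at day 9. H3K27ac was absent from the near window in all 8 MEF, day 3 and day 6 libraries, covered 2.52 and 2.45 kb at day 9, and 1.49 and 1.32 kb in ESC. The gene Elp5 lies 0.337 kb away and shares these regions, and 11 protein-coding genes lie in the wide window.

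Cldn6 (gene ID 54419, chromosome 17, 23679348 to 23682446) was counted as acetylated up to day 6 through a region at its neighbours. Its MEF, day 3 and day 6 peaks lay in a region of 4798 bp whose edge is 1.50 kb from the gene and which lies at its neighbours Thoc6, Hcfc1r1 and Tnfrsf12a, while the region over its own start site was in no library before day 9 and in both libraries at day 9 and in ESC. H3K27ac covered 0.735 and 1.00 kb of its near window in MEF, 0.489, 0.588 and 0.557 kb at day 3, 0.204, 0 and 0.555 kb at day 6, 4.02 and 3.99 kb at day 9, and 0.776 and 1.26 kb in ESC. The only KLF4 region in the near window, 1.91 kb before the start site and likewise beside Tnfrsf12a, was in 1 day 3 library, in both libraries at day 6, day 9 and in ESC, and in 1 of the 2i pair.

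Ocln codes for occludin, a membrane protein of tight junctions (gene ID 18260, chromosome 13, 100496504 to 100552718). H3K27ac was absent from its near window in all 8 MEF, day 3 and day 6 libraries, covered 5.04 and 3.50 kb at day 9, and 1.42 and 1.12 kb in ESC. A region of 3064 bp over both start sites was in both day 9 and both ESC libraries, and a region 16.4 kb after the first start site was in both day 9 libraries and in no ESC library. Ocln had KLF4 in 5 of 10 libraries, the fewest of the 10 genes. KLF4 covered 0 and 0.394 kb at day 3, 0 and 0 kb at day 6, 0.238 and 0.459 kb at day 9, 0 and 0.423 kb in ESC, and 0 and 0.722 kb in 2i. Day 9 was the only stage with KLF4 in both libraries, in a region of 271 bp inside the acetylated region 16.4 kb after the start site.

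Krt8 and Krt18 code for keratins 8 and 18 and lie 23.9 kb apart, with shared wide windows. At Krt8 (gene ID 16691, chromosome 15, 101996711 to 102004342) KLF4 covered 0.751 and 0.536 kb at day 3, 0.795 and 0.941 kb at day 6, 1.76 and 1.72 kb at day 9, 0.465 and 0.768 kb in ESC, and 0.773 and 0.674 kb in 2i, so both day 9 libraries were the highest. A region of 938 bp centred 0.978 kb after the start site was bound in both libraries of all 5 stages, and regions over the start site and 1.38 kb before it were first found at day 9. H3K27ac covered 0.361 and 0.455 kb in MEF, 1.32, 0.0760 and 0.222 kb at day 3, 0 kb in all 3 day 6 libraries, 4.38 and 3.88 kb at day 9, and 1.65 and 1.32 kb in ESC. Krt8 was the one member marked in MEF and at day 3 with no H3K27ac in any day 6 library.

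Krt18 (gene ID 16668, chromosome 15, 102028216 to 102032026) had the least H3K27ac at day 9. H3K27ac covered 0 kb in both MEF libraries, 0.485 kb in 1 of 3 day 3 libraries, 0 kb in all day 6 libraries, 0.761 and 0.517 kb at day 9, and 0.728 and 0.495 kb in ESC. KLF4 was in the near window in 1 day 3 library (0.213 kb), away from the start site. In the 568 bp region that takes in the start site it was found in both day 6 libraries (0.175 and 0.206 kb), in 1 day 9 library (0.318 kb), in both ESC libraries (0.209 and 0.568 kb) and in both 2i libraries (0.338 and 0.277 kb).

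Esrp1 codes for an RNA-binding protein that directs epithelial splicing (gene ID 207920, chromosome 4, 11331933 to 11386783). A KLF4 region of 848 bp, 0.917 kb beyond the high-coordinate end, was found in both libraries of all 5 stages, and KLF4 covered 0.479 and 0.657 kb of the near window at day 3, 0.587 and 0.603 kb at day 6, 1.79 and 1.75 kb at day 9, 0.381 and 1.38 kb in ESC, and 0.954 and 1.02 kb in 2i. H3K27ac was absent in all 8 MEF, day 3 and day 6 libraries, covered 6.55 and 6.18 kb at day 9, and 0.305 and 0.226 kb in ESC. The day 9 block of 4967 bp lay over the same KLF4 region. In ESC the H3K27ac peaks of the 2 libraries were at different places in that block, 1 of them over the KLF4 region.

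**Figure D3:**
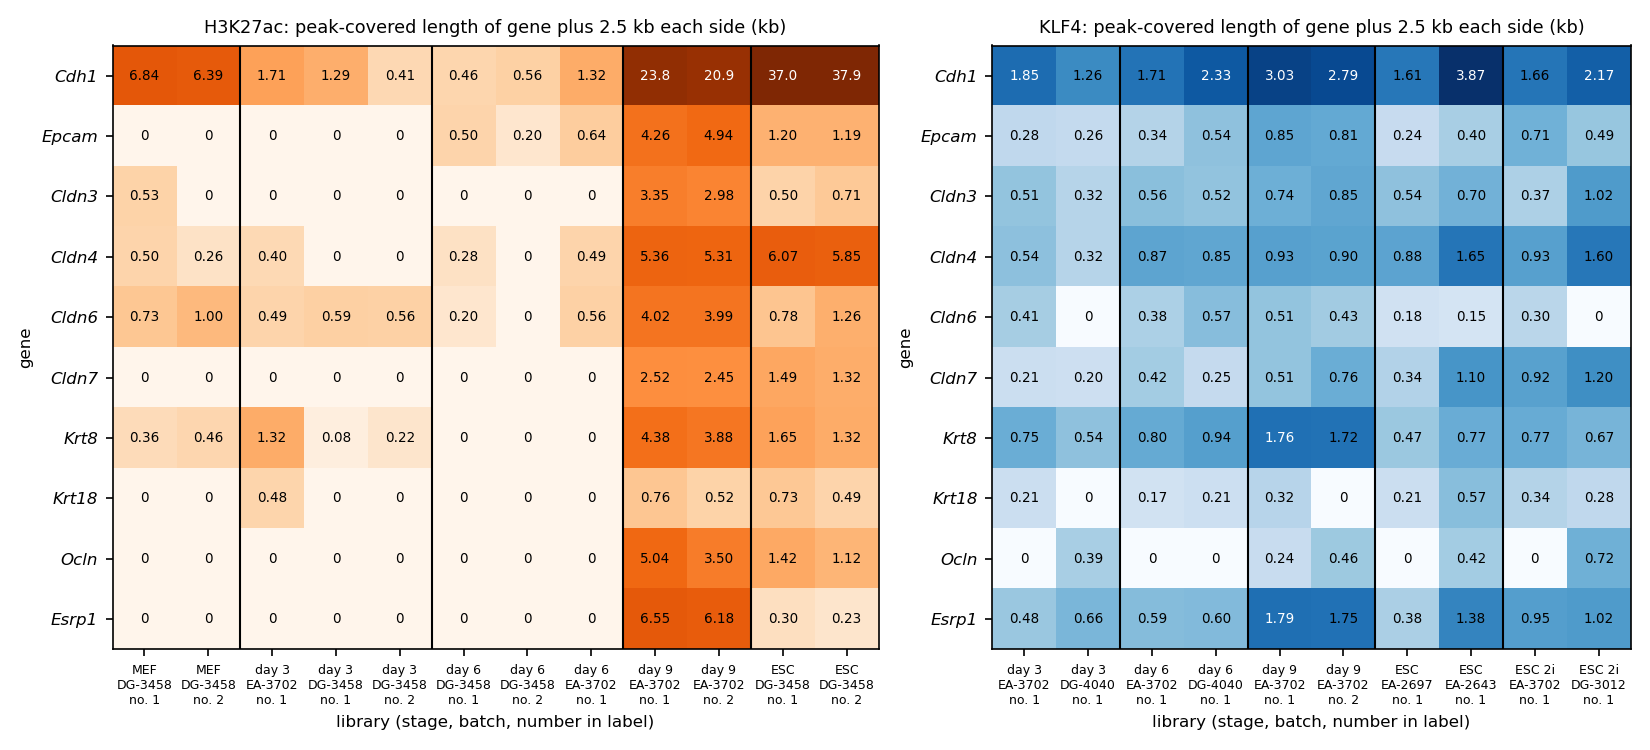
Length of the near window covered by peaks (kb, printed in each cell; darker is longer) for the 10 genes (rows) in every library (columns, with stage, batch and number from the labels), H3K27ac on the left and KLF4 on the right. The H3K27ac panel is mostly 0 from MEF to day 6 outside Cdh1, Cldn6, Krt8 and Cldn4 and filled at day 9 and in ESC, while the KLF4 panel is filled from day 3 on except at Ocln, Krt18 and Cldn6.

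Read together by gene, 3 genes (Cldn3, Cldn7 and Esrp1) had KLF4 in both day 3 libraries, no H3K27ac in any day 3 or day 6 library, and H3K27ac in both day 9 libraries, an order found at 0.911% of all protein-coding genes. Cldn7, Ocln and Esrp1 had no H3K27ac in any of the 8 MEF, day 3 and day 6 libraries and H3K27ac in both day 9 libraries, as did 2.01% of all genes. KLF4 was in both libraries at day 3, day 6, day 9 and in ESC at 7 genes, Cdh1, Epcam, Cldn3, Cldn4, Cldn7, Krt8 and Esrp1, against 25.6% of all genes. Cdh1 and Cldn6 were the 2 genes with H3K27ac at every stage, against 46.4% of all genes. These orders were defined after the values were seen and have no test.

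Counted by region, the near windows held 28 distinct H3K27ac regions, of which 6 were present in MEF, 5 at day 3 and 4 at day 6, against 24 at day 9 and 20 in ESC. They held 31 distinct KLF4 regions, of which 9 were present at day 3 and 15 at day 6, then 21 at day 9, 20 in ESC and 16 in 2i. The 9 KLF4 regions of day 3 were all present at day 6, at day 9 and in ESC. A region counted as acetylated at a stage where H3K27ac peaks of at least 2 libraries overlapped any part of it. H3K27ac was over 0 of them in MEF, 1 at day 3 (at Krt8), 1 at day 6 (at Epcam), all 9 at day 9 and 7 in ESC. Of the 12864 KLF4 regions of day 3 within 2.5 kb of any protein-coding gene, 56.2% carried H3K27ac in MEF, 64.8% at day 3 and 48.1% at day 6, against 76.3% at day 9 and 56.5% in ESC. In the wide windows, which hold neighbouring genes, H3K27ac was over 48.5% of the 33 KLF4 regions of day 3 in MEF, over 51.5% at day 3 and 42.4% at day 6, and over 81.8% at day 9 and 75.8% in ESC. A further 9 near regions were bound in both day 9 libraries and in no day 3 library, and H3K27ac was over 0 of them in MEF, at day 3 and at day 6, over 7 at day 9 and over 2 in ESC. Among all such late regions near protein-coding genes (n = 2872) 9.64% carried H3K27ac at day 6 and 58.0% at day 9. Regions of 1 gene share their source, and 3 of the 9 day 3 regions belong to Cdh1.

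**Figure D4:**
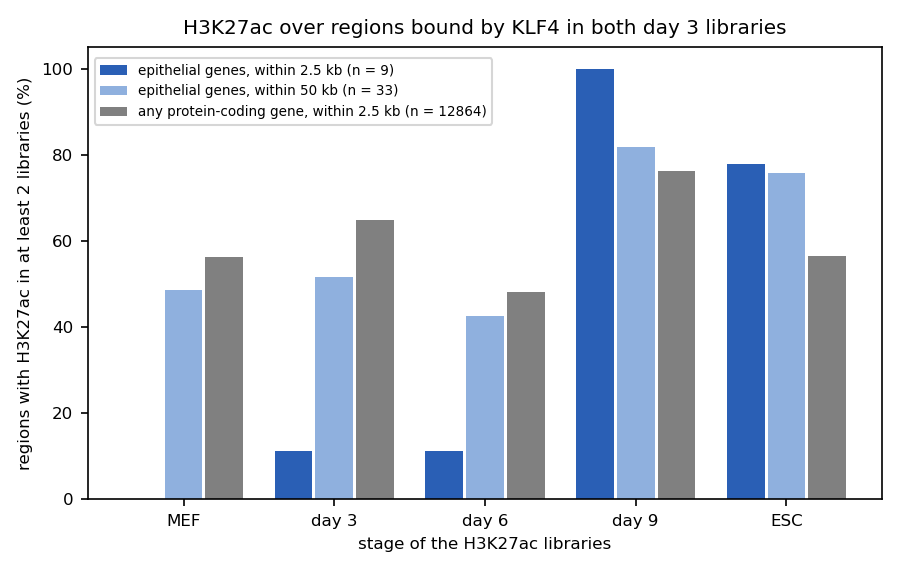
Share of KLF4 regions of day 3 that carried H3K27ac in at least 2 libraries (y axis, percent) at each stage (x axis), for regions within 2.5 kb of the 10 epithelial genes (dark blue, n = 9), within 50 kb of them (light blue, n = 33) and within 2.5 kb of any protein-coding gene (grey, n = 12864). The dark bars are at 0% in MEF, 11.1% at days 3 and 6 and 100% at day 9, whereas the grey bars lie between 48.1% and 76.3%. All 9 dark blue regions, but only 4510 of the grey ones, had KLF4 also at day 6, day 9 and in ESC. Of the 4510, 72.2% carried H3K27ac in MEF and 93.3% at day 9.

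The change in acetylated length was tested in the wide windows with limma over all 19778 protein-coding genes with a peak in at least 2 H3K27ac libraries, all 10 members among them. Covered length was scaled by the total of its list, and differences are on the log2(covered length + 500 bp) scale, which understates changes of short lengths. From day 6 to day 9, 9 members rose and 1 fell at a Benjamini-Hochberg adjusted p under 0.05, against 18.7% of all genes higher and 25.4% lower. The members' median difference was 1.40, and that of all genes was 0. The wide windows of Cldn3 and Cldn4 overlap, as do those of Krt8 and Krt18, so their calls are not independent. Before scaling, peaks covered 0.904 to 2.79 kb of the Cdh1 window at day 6 and 24.7 to 27.5 kb at day 9, 0 to 0.775 and 7.95 to 10.4 kb of the Ocln window, 0.205 to 1.20 and 12.6 to 12.8 kb of the Cldn6 window, and 5.85 to 8.03 and 15.6 to 15.8 kb of the Cldn7 window. The largest rises were at Ocln (2.51 ± 0.66 SE, limma adjusted p = 0.0136), Cldn6 (2.17 ± 0.33, limma adjusted p = 0.00099), Cdh1 (2.15 ± 0.17, limma adjusted p = 1.78e-05) and Cldn4 (2.15 ± 0.25, limma adjusted p = 0.000239). Cldn3 rose by 1.54, Krt8 by 1.26, Esrp1 by 1.04, Krt18 by 0.92 and Epcam by 0.43, where the direction turned (-0.18) when peaks were counted in place of their length. Cldn7 fell by 0.71 (limma adjusted p = 0.0111), in a window with 11 other coding genes. In its near window it rose by 2.44, and there all 10 genes rose (background 17.4% higher). Without the scaling all 10 rose also in the wide window, where 87.4% of all genes rose and 0% fell and the median of all genes moved by 1.42.

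The rise was also seen within a batch. In the batch EA-3702, the only one that holds both stages, 4 members had H3K27ac in the near window in the day 6 library, over 3.01 kb in all, and 10 in each day 9 library, over 60.0 and 54.7 kb. The share of all genes in these 3 libraries was 52.3%, 65.0% and 65.8%. When every list was held to equally many best-scored peaks, 8 members rose and 0 fell by limma, against 8.79% of all genes higher and 11.9% lower. With the batch as a block 8 rose and 1 fell, against 14.4% higher and 18.4% lower. Leaving out either day 9 library ended the call at Ocln and at Cldn7, leaving out the first also that at Krt18 and leaving out the second also that at Epcam. In bulk material, more cells with a mark and more of the mark per cell cannot be told apart, and sorting at days 6 and 9 was by SSEA1, not by an epithelial protein.

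Before day 6 the wide windows moved in both directions, in shares of the members near those of all genes. From MEF to day 3, 3 members rose (Epcam by 1.49, Esrp1 by 1.02 and Cldn7 by 0.59) and Cdh1 fell by 0.66, against 29.2% of all genes higher and 18.6% lower by limma. None of these 3 genes had H3K27ac in its near window at either stage. In the Epcam window H3K27ac appeared at day 3 over the KLF4 region 32.8 kb before the start site, and the peaks of the Esrp1 window lay at the end of its neighbour Dpy19l4. The rises are relative to shorter lists: the wide window of Esrp1 held 2.35 to 2.51 kb in MEF and 1.72 to 2.43 kb at day 3, that of Cldn7 15.7 to 16.1 and 7.96 to 9.76 kb, and that of Epcam 2.32 to 3.04 and 2.60 to 3.95 kb. The calls at Cdh1 and Cldn7 were lost without either MEF library, which left 2 calls, and Cldn7 lost its call also without either DG-3458 library of day 3. From day 3 to day 6, 4 members rose (Epcam by 1.26, Cldn7 and Cldn4 by 0.82, and Cldn3 by 0.44) and 2 fell (Cldn6 by 1.27 and Krt8 by 0.79), against 36.1% higher and 14.7% lower. Day 3 cells were taken in bulk and day 6 cells were sorted for SSEA1, so time and sorting cannot be told apart here. Without the scaling 0 members rose and 6 fell from MEF to day 3, against 1.71% of all genes higher and 65.1% lower, and 0 rose and 4 fell from day 3 to day 6, against 0.313% higher and 41.3% lower. The members' shares were thus near those of all genes, while the median of all genes moved by -0.99 and -0.56. The members' unscaled medians were -1.06 and -0.71, which is -0.07 and -0.15 relative to all genes.

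From day 9 to ESC, 0 members rose and 6 fell, against 22.3% of all genes higher and 30.5% lower by limma, with a median of -0.54 for the members and -0.17 for all genes. Without the scaling 0 rose and 4 fell, against 25.7% of all genes higher and 14.7% lower, with medians of -0.17 for the members and 0.12 for all genes. The 6 were Esrp1 (-2.56 ± 0.18 SE, limma adjusted p = 2.39e-06), Ocln (-2.14 ± 0.73, limma adjusted p = 0.0331), Cldn6 (-1.36 ± 0.36, limma adjusted p = 0.0116), Krt8 (-1.19), Cldn7 (-0.58) and Epcam (-0.45). Cdh1 (0.28, 95% interval from -0.15) and Cldn4 (0.12) had higher values in ESC that did not pass the test. The count was 3 without the first day 9 library (39.7% of all genes called in either direction) and 2 without the second (40.5%) or without the first ESC library (37.1%). In the near windows 7 members fell, against 26.9% of all genes. All H3K27ac libraries of day 9 are of batch EA-3702 and all those of ESC of batch DG-3458, so no batch holds both stages. With the batch as a block, estimated from the day 3 and day 6 libraries that both batches hold, 0 members rose and 4 fell by limma, with a median of -0.81, against 19.7% of all genes higher and 27.6% lower and a median of -0.15.

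Between MEF and ESC, both of batch DG-3458, 4 members were higher in ESC and 1 lower, against 37.3% of all genes higher and 26.2% lower by limma. The higher members were Epcam (2.73), Cldn4 (2.70), Cdh1 (2.13) and Cldn3. Krt8 was lower (-0.73), with several MEF regions near Krt78 in its wide window, and had a difference of 1.08 in the near window (limma adjusted p = 0.0708). In the near windows 8 members were higher and 0 lower, against 24.6% of all genes higher.

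The KLF4 differences of the 10 genes did not pass the test in the wide windows. By limma over 18861 genes, 0 of 10 members were called between day 3 and day 6 (0.0636% of all genes higher and 0.117% lower), between day 6 and day 9 (0.0106% higher and 0% lower) and between day 9 and ESC (6.07% higher and 4.6% lower). At an unadjusted p under 0.05, 3 members had higher values at day 6 than at day 3 (Cldn7, Cldn4 and Cldn3), 3 had higher values at day 9 than at day 6 (Ocln, Esrp1 and Krt18), and 2 had higher (Cldn4 and Cldn3) and 1 lower values (Esrp1) in ESC than at day 9. In the near windows, too, 0 of 10 members were called by limma in these comparisons, against 0% of all genes in the first pair of comparisons and 2.6% higher and 3.14% lower between day 9 and ESC. At an unadjusted p under 0.05 the near windows of 3 members had higher values at day 6 than at day 3 (Krt8, Cldn4 and Cdh1), 2 had higher values at day 9 than at day 6 (Krt8 and Esrp1), and Cldn4 had higher and Krt8 lower values in ESC than at day 9. The lowest adjusted p-values in the wide windows by limma were 0.119, 0.292 and 0.0691. Cldn4 was called higher in ESC than at day 9 (0.73) when either 2i library was left out. At Cldn7 the difference between days 3 and 6 was 1.02 (95% interval from 0.45), with scaled lengths of 0.323 and 0.246 kb per Mb of list at day 3 and 0.887 (EA-3702) and 0.445 (DG-4040) at day 6. A p that misses the threshold with 2 libraries a stage does not show that binding was alike. The KLF4 libraries of day 9 are of batch EA-3702 and those of ESC of batches EA-2697 and EA-2643, which hold no other stage, so stage and batch cannot be told apart between day 9 and ESC.

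**Figure D5:**
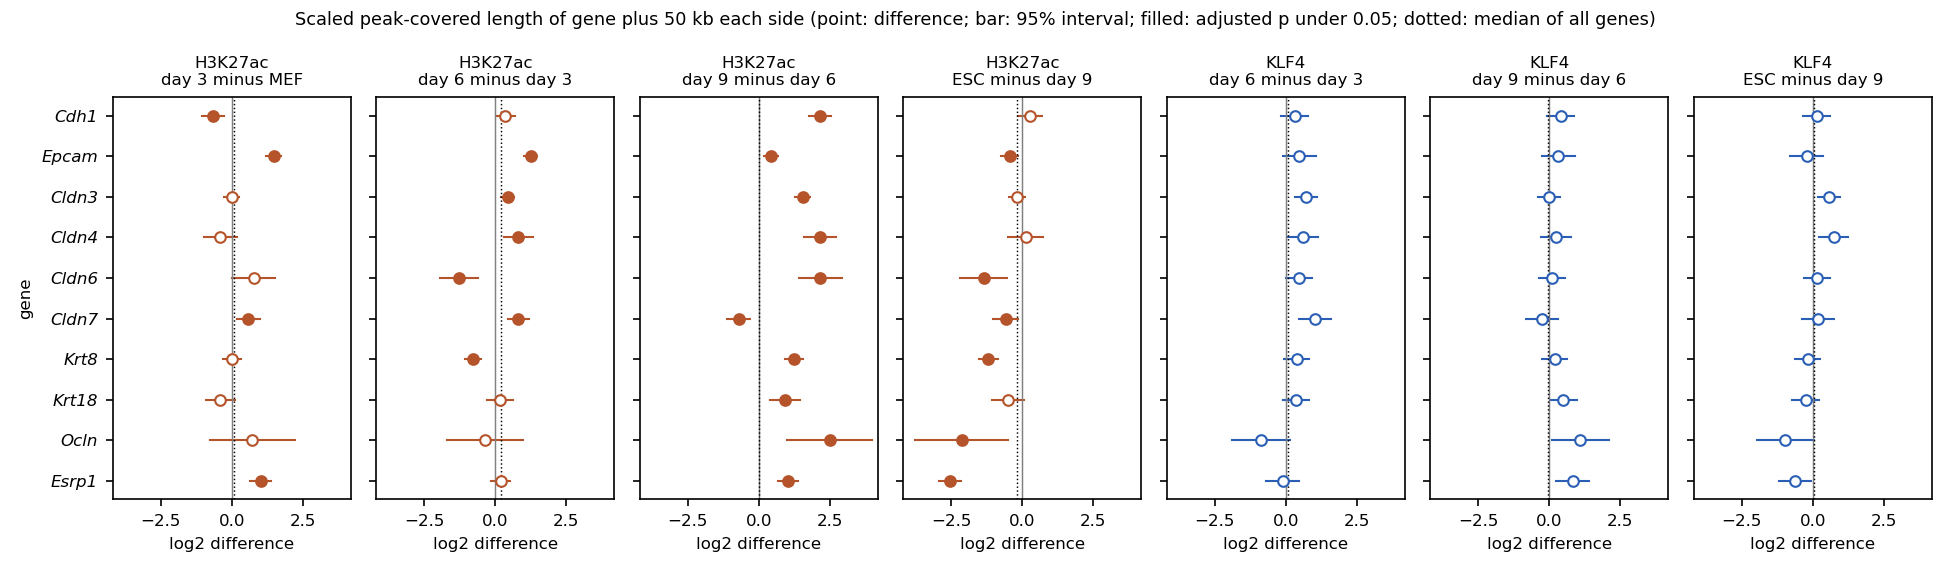
Difference in scaled peak-covered length of the wide window (x axis, log2 difference) for the 10 genes (rows) in 4 H3K27ac comparisons (orange) and 3 KLF4 comparisons (blue). Points are limma estimates, bars 95% intervals, filled points have an adjusted p under 0.05 and dotted lines are the median of all genes. In the day 9 minus day 6 panel 9 filled points lie to the right of 0 and Cldn7 to the left, and no KLF4 point is filled.

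Of 40 other epithelial genes, H3K27ac was in the near window of 26 in MEF (66.3% of all genes), 23 at day 3 (57.5%) and 21 at day 6 (49.3%), near those shares, and of 36 at day 9 (63.5%) and 36 in ESC (65.9%). KLF4 was near 27 of them at day 3 (41.6% of all genes) and 24 at day 6 (39.7%), then 31 at day 9 (43.1%), 30 in ESC (40.5%) and 33 in 2i (44%). From day 6 to day 9, 23 of the 40 rose and 3 fell in the wide window by limma, with a median of 0.55, against 18.7% of all genes higher and 25.4% lower. From day 9 to ESC 3 rose and 23 fell by limma, with a median of -0.64, against 22.3% higher and 30.5% lower. Among those with the largest difference between ESC and MEF, St14, a membrane serine protease, had no H3K27ac in its near window in MEF, 6.57 to 8.58 kb at day 9 and 9.54 to 10.4 kb in ESC. Grhl3, a grainyhead transcription factor, had 1.06 to 1.30 kb in MEF and 5.17 to 5.37 kb at day 9, and Dsg2, a desmosomal cadherin, had none in MEF and 2.94 to 4.60 kb at day 9. Krt7, another simple epithelial keratin, went the other way, with 4.12 to 4.18 kb in both MEF libraries and none at day 3, day 6 or day 9. By rank of the KLF4 score at day 3, Crb3 (a polarity protein), Jup (plakoglobin), Tjp1 (the tight junction scaffold ZO-1) and Pkp2 (a desmosomal plaque protein) came first, and they differed in H3K27ac. At Crb3 it covered 0 kb in MEF, up to 0.406 kb at day 3 and 2.04 to 2.53 kb at day 9. The other 3 were acetylated in both MEF libraries, Jup over 2.35 to 2.85 kb (up to 12.7 kb at day 9), Tjp1 over 11.3 to 11.4 kb (7.65 to 8.32 kb at day 9) and Pkp2 over 7.26 to 7.57 kb (4.57 to 5.03 kb at day 9).

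Marker genes of other cell types were counted in the same way, against 66.3% of all genes in MEF, 57.5% at day 3 and 49.3% at day 6, then 63.5% at day 9 and 65.9% in ESC. Of 18 mesenchymal genes, all 18 had H3K27ac in the near window in MEF, 17 at day 3 and 9 at day 6, then 10 at day 9 and 10 in ESC, over 228 to 229 kb in MEF and 7.52 to 19.6 kb at day 6, and Col1a2, Col3a1, Pdgfrb, Postn, Snai2 and Thy1 were unmarked from day 6 on, Postn already at day 3. Col1a1, 1 of the 18, also holds the cassette. Of 12 pluripotency genes, 5 were marked in MEF, 4 at day 3 and 3 at day 6, against 10 at day 9 and 12 in ESC, over 24.2 to 25.3 kb at day 9 and 149 to 150 kb in ESC. Of 6 keratinocyte genes 2 were marked in MEF and at days 3 and 6, 5 at day 9 and 4 in ESC. Of 6 blood and endothelial genes 6 were marked in MEF, 3 at day 3 and 1 at day 6, then 2 at day 9 and 3 in ESC, with Ptprc and Cdh5 unmarked from day 3 on. At day 3 KLF4 was near 11 of the mesenchymal and 5 of the pluripotency genes, against 41.6% of all genes. It was near 1 of the keratinocyte and 1 of the blood and endothelial genes. At day 6 these counts were 9, 5, 0 and 1, against 39.7% of all genes. The part of these marker genes in the results for the epithelial genes was not tested.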

How the data were processed

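H3K27ac and KLF4 were measured by single-end ChIP-seq, per the labels' protocols. The authors deposited 1 peak list per library with a score, a fold enrichment (ratio over control) and −log10 p-values and q-values for each peak, and no read counts, so depth is unknown and no peak does not mean no signal. The submitters' processing notes name mm10, cutadapt 1.8.1, Bowtie2 2.2.5, deepTools 2.3.6 and MACS2 2.1.1, with no roles given. The score, fold and q columns were used only to rank, filter or describe peaks of a list, and were not tested between lists. The 13 input libraries were not analysed here.

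Gene coordinates and promoters came from RefSeq tables of GRCm38.p6, in which all 10 genes and 8 of their promoters were found. Peaks overlapped a window by at least 1 bp. Covered base pairs per window and library were scaled by the covered length of the whole list, and log2(value + 500 bp) was fitted over all libraries of a mark with limma 3.58.1 in R 4.3.3 (eBayes with trend), for genes with a peak in at least 2 libraries, with Benjamini-Hochberg adjustment over all genes tested. Other steps used Python 3.11.15 with pandas 2.3.3 and numpy 2.4.6.

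The members, the lists of 40 other epithelial, 18 mesenchymal, 12 pluripotency, 6 keratinocyte and 6 blood and endothelial genes and the tests were chosen with earlier results of these data known. All members are named, and of the other epithelial genes the 4 with the largest called ESC to MEF difference and the 4 with the best KLF4 score rank at day 3. In simulated data with known changes, 54% of changes of 1 and 98% of changes of 3 on the log2 scale were recovered for H3K27ac between days 6 and 9 over 19778 genes, and 22% and 97% for KLF4 over 18861 genes. The batch in the labels splits the H3K27ac libraries of MEF and ESC (DG-3458) from those of day 9 (EA-3702), and the KLF4 libraries of ESC (EA-2697 and EA-2643) from those of day 9 (EA-3702). Same-numbered H3K27ac libraries of MEF, day 3, day 6 and ESC did not deviate together (correlations of -0.0079 to 0.034 across genes). Day 9 and KLF4 libraries were not checked in this way, and the numbers were not used for pairing in the main fits.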

Additional observations from a re-analysis of the deposited data

How the results depend on the processing

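The number of members called by limma moved by over 1.5 times as follows, with the share of all genes called in either direction in brackets. From MEF to day 3 (4 called, 47.7%) it was 2 with equal numbers of top peaks (36.4%), 1 in the near window (42.9%) and 2 by peak number (34.3%). From day 3 to day 6 (6 called, 50.8%) it was 2 in the near window (45.5%) and 3 by peak number (33.0%). From day 6 to day 9 (10 called, 9 of them higher, 44.1%) it was 6 by peak number, all higher (32.3%). From day 9 to ESC (6 called, 52.8%) it was 3 at a deposited q-value of at most 0.01, where 1 was higher (46.5%), and 2 by peak number (27.7%). Between MEF and ESC (5 called, 63.5%) it was 8 in the near window (47.7%) and 10 when only these stages were fitted (83.7%), and for KLF4 between day 9 and ESC (0 called, 10.7%) it was 2 when only these stages were fitted (17.6%). Whether the numbers in the titles pair libraries was checked only for H3K27ac in MEF, at day 3, at day 6 and in ESC, not at day 9. With these numbers and the batch as a replicate block the count was 5 from day 6 to day 9, all higher (15.8%), and 3 from day 9 to ESC, all lower (34.9%), and the other counts stayed within 1.5 times.

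Leaving out 1 library at a time gave 2 to 6 calls from MEF to day 3, 6 to 7 from day 3 to day 6, 7 to 10 from day 6 to day 9, 2 to 7 from day 9 to ESC and 5 in each case between MEF and ESC, and for KLF4 0, 0 and 0 to 1. Members with H3K27ac numbered 4 to 5 in MEF, 3 at day 3, 2 to 4 at day 6, and 10 at day 9 and in ESC. Those with KLF4 numbered 8 to 9 at day 3, 9 at day 6, 9 to 10 at day 9 and in ESC and 9 in 2i. For KLF4, and for H3K27ac in MEF, at day 9 and in ESC, 1 library then sufficed, so these counts could not fall.

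Members with H3K27ac in MEF (4, with 66.3% of all genes) numbered 1 with equal numbers of top peaks (48.4%), 2 with the top 50% of each list (61.4%), 10 in the wide window (82.4%) and 1 over the gene alone (63.6%). At day 3 (3, 57.5%) they numbered 5 with any library (62.8%) and 10 in the wide window (76.4%). At day 6 (4, 49.3%) they numbered 2 with equal numbers of top peaks (47.5%), 1 with the top 50% (38.3%), 2 at the q-value limit (43.5%) and 10 in the wide window (69.7%). In ESC (10, 65.9%) they numbered 2 with equal numbers of top peaks (42.7%). With KLF4 at day 6 (9, 39.7%) they numbered 5 over the gene alone (34.4%). The cause of these moves was not tested.

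Directions turned without the scaling at Cldn7 (-0.80 from MEF to day 3, -0.41 from day 3 to day 6 and 1.19 from day 6 to day 9), Esrp1 (-0.14 from MEF to day 3), Cldn4 (-0.18) and Cldn3 (-0.64, both from day 3 to day 6). They turned in the near window at Cldn7 (2.44 from day 6 to day 9) and Krt8 (1.08 between MEF and ESC), and by peak number at Epcam (-0.18 from day 6 to day 9). The lists give no reads, so a gene without a peak can carry the mark below the detection of its library.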

Other observations

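In the wide windows of 5 members, 8 distinct KLF4 regions more than 2.5 kb from the member carried both marks in every library (12 of H3K27ac and 10 of KLF4). They lie within 2.5 kb of other coding genes, namely Abhd11 in the window of Cldn3, Pkmyt1 and 1520401A03Rik in that of Cldn6, Elp5, Ctdnep1, Gabarap and Phf23 (4 regions) in that of Cldn7, Krt78 in that of Krt8 and Eif4b in that of Krt18.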
